A study of Mus musculus with 27 samples.

Results

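The 37 genes described here encode cytokines, chemokines, NF-kB factors and their inhibitors, NF-kB targets, cytokine receptors, and innate immune sensors with the inflammasome. They were taken by name from the 26264 symbols of the expression table, which writes them in lower case (il1a, il1b, tnf, ccl2, ccl12, cxcl10, nfkbia, il4ra and so on), and all 37 were listed. RNA was sequenced from small cortex blocks of both hemispheres of 14 female 5xFAD mice on a C57BL6 background, 16 weeks old and killed 24 h after a stereotaxic microinjection into the parietal association cortex of 1 hemisphere. The mice received vehicle (4 mice, J, L, M and AH), R33 (5 mice, K, N, O, AD and AE) or R55 (5 mice, P, Q, R, AA and AB). R33 and R55 are thiophene thioureas given to stabilise retromer, the complex that returns cargo from endosomes, and each was injected at 10 mM in the DMSO and beta-cyclodextrin solution that served as vehicle. The hemisphere that was not injected is called contralateral. There were 27 libraries, since mouse AE had an injected one only. Every mouse, vehicle mice included, carried the 5xFAD transgenes, which are driven by the neuronal Thy1 promoter, and no wild-type mouse was used here. Every injected hemisphere had also received the needle and the solvent, so that injury, solvent and infusion cannot be told apart.

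In injured brain, interleukin-1 and TNF come chiefly from microglia and macrophages. Their receptors, and Toll-like receptors through the adaptor MyD88, free NF-kB from its inhibitor IkB-alpha, and NF-kB then drives chemokines, adhesion molecules and its own inhibitors. CCL2, CCL7 and CCL12 draw monocytes through the receptor CCR2, CXCL10 is induced by interferons together with NF-kB, and interleukin-4 and interleukin-13 signal through IL-4R-alpha, IL-13R-alpha1 and STAT6. Caspase-1, activated by inflammasome sensors such as NLRP3, matures interleukin-1-beta.

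The promoters of 3 genes are shown because the results return to these genes: Cxcl10, with the smallest p-value of the tested members for R55 against vehicle, Ccl12, with the largest log2(FPKM + 1) fold change between hemispheres among the tested members, and Nfkbia, which encodes IkB-alpha and is a textbook NF-kB target. Each window runs from 250 bases before to 50 bases after the gene's start in RefSeq's promoter table of GRCm38.p6, was found by exact match at 1 place in GRCm39, and is written 5′ to 3′ on the gene's strand. Capitals mark matches, on either strand, to a kappa-B-like pattern, GGGNNNTTCC, or an interferon-response-like pattern, GAAANNGAAA.
Cxcl10, chr5:92496699-92496998 of GRCm39, minus strand: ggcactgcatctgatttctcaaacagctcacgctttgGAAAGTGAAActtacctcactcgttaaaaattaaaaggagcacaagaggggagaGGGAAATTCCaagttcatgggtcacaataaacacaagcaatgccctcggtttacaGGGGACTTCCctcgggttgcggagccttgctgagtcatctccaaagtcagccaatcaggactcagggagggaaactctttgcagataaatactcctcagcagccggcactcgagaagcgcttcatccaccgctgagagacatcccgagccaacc
Nfkbia, chr12:55539383-55539682 of GRCm39, minus strand: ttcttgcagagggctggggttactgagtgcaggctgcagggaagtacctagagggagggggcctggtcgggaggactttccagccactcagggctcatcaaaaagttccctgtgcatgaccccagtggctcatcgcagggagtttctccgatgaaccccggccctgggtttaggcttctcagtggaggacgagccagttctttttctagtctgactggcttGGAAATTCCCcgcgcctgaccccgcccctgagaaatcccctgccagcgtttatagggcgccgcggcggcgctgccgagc
Ccl12, chr11:81992421-81992720 of GRCm39, plus strand: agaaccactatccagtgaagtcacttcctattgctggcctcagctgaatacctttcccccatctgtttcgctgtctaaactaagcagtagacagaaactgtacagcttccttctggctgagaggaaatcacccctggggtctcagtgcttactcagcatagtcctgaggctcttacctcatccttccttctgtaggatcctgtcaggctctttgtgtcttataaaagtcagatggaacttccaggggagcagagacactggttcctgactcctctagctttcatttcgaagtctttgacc
The Cxcl10 window held 2 kappa-B-like matches and 1 interferon-response-like match, the Nfkbia window held 1 kappa-B-like match, and neither pattern was in the Ccl12 window. A window was listed for 29 of the 37 genes. Of these, 13 (44.8%) held the kappa-B-like pattern, against 6.31% of all 27025 genes with a window. They were Il6, Il1rn, Cxcl1, Cxcl2, Cxcl10, Nfkb2, Nfkbia, Tnfaip3, Il1r1, Il4ra, Ifngr2, Tlr2 and Casp4. The interferon-response-like pattern stood in 3 (10.3%), Cxcl10, Tnfrsf1b and Myd88, against 3.99% of all. The 37 genes were chosen to include NF-kB targets, so no conclusion is drawn from the higher share of the kappa-B-like pattern. A match describes letters and is not a binding site. Ccl2, Ccl7 and Ccl12 lie in this order on chromosome 11 (GRCm39), Ccl2 at 81926397 to 81928279, Ccl7 at 81936532 to 81938351 and Ccl12 at 81992645 to 81994466. Their annotated transcripts shared no stretch of 50 bases.

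Levels are in FPKM, fragments scaled to the length of the gene and to all counted fragments of the library, and 15932196 to 38077027 fragments were counted per library. The libraries held the neuron markers of cortex at high levels, with 5 such genes summing to 1992 to 3171 FPKM in contralateral libraries. Of the 37 genes, 26 had a mean of at least 1 FPKM and entered the test with 12976 genes in all. The other 11 (Il1b, Il6, Tnf, Il1rn, Ccl7, Cxcl1, Cxcl2, Ccrl2, Tlr4, Nlrp3 and Casp4) lay below this filter. A second fit on whole fragments recovered from the FPKM values took genes with a mean of at least 5 fragments and reached 34 of the 37, all but Il6, Cxcl1 and Cxcl2. A gene passed when its limma p-value, adjusted over all genes tested by the Benjamini-Hochberg method, was under 0.05. Counts at an unadjusted p under 0.05 are also given, beside the same share over all genes, and are not calls. Fold changes are on the log2(FPKM + 1) scale, which understates those of low genes, with the SE after the ± sign. Those given on recovered fragments are on another scale, without the added 1 FPKM, and their sizes cannot be set against the others. In bulk tissue, more cells of a type and more RNA per cell cannot be told apart.

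The 6 highest of the 37 genes encode receptors, an adhesion molecule, an NF-kB subunit and an NF-kB inhibitor. Over the 27 libraries, the interferon-gamma receptor chain Ifngr2 averaged 26.5 ± 2.44 FPKM (SD), Nfkbia 12 ± 1.60, the TNF receptor Tnfrsf1a 11 ± 3.30, Ifngr1 10.7 ± 1.44, the adhesion molecule Vcam1 9.86 ± 2.02 and the NF-kB subunit Rela 9.62 ± 1.16. The chemokine Ccl12 came next at 7.69 ± 11.4 FPKM. Il1a was at 1.05 ± 0.373, Il1b at 0.607 ± 0.330, Tnf at 0.143 ± 0.129 and Il6 at 0.0761 ± 0.0494 FPKM. Il6 rested on 66 fragments in all, and Cxcl2, a neutrophil chemokine, on 17, with 17 of the 27 libraries at 0. The SD over libraries was larger than the mean for Ccl2, Ccl7, Ccl12, Cxcl1, Cxcl2, Cxcl10 and Il1rn, and for none of the other members.

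The injected hemisphere was compared with the contralateral one over all treatments. On the injected side, R33 and R55 mice had received the compound as well as the needle and the solvent. The comparison is therefore not one of the microinjection alone. No member passed, and neither did any other gene (0% of 12976). Of the 26 members tested, 24 were higher in the injected hemisphere, with a median log2 fold change of 0.136 beside 0.001 over all genes. At an unadjusted p under 0.05 stood 6 of them (23.1%), all higher: Il4ra, Stat6, Ccl12, Tnfrsf1a, Il1r1 and Il1a. The share of all genes was 3.47% in either direction and 1.46% higher. Mouse labels have 1 or 2 letters, and what these series stand for is not given in the sources used here. Of the 26 members, 18 were higher on the injected side in the mean of the 9 pairs with 1 letter and 25 in that of the 4 pairs with 2 letters, with medians of 0.037 and 0.299.

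Hemispheres of a mouse resembled each other, so the 13 mice with both were also compared as pairs. With the mouse as a replicate block, 11 of the 26 (42.3%) stood at an unadjusted p under 0.05, all higher, against 6.13% of all genes in either direction and 3.11% higher. These were the 6 above with Il13ra1, Myd88, Tlr2, Ccl2 and Cxcl16, and the smallest adjusted p of a member was 0.417, for Tnfrsf1a. In the blocked fit on recovered fragments, 30 of 34 members were higher and 16 (47.1%) stood there, all higher, against 7.51% of 16558 genes in either direction and 4.12% higher. The smallest adjusted p was then 0.174, for Ccl12. By role, the paired fit held 5 of 8 receptors with Stat6, 3 of 5 chemokines, 2 of 3 innate sensors, the 1 ligand tested, 0 of 6 NF-kB genes and 0 of 3 adhesion and prostaglandin genes at that level.

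**Figure D1:**
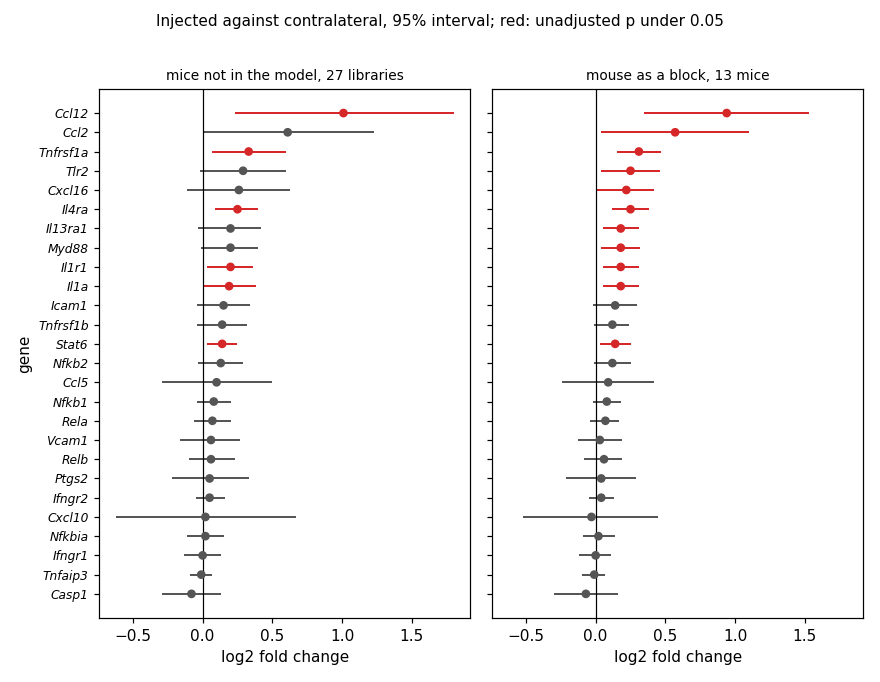
Log2 fold change on the log2(FPKM + 1) scale (points) with its 95% interval (bars) of the 26 tested genes, injected against contralateral hemisphere, without the mouse in the model and with the mouse as a block. Red marks an unadjusted p under 0.05, 6 genes without and 11 with the block, all above 0, and none passed after adjustment.

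Among the tested members, the CCR2 ligands Ccl12 and Ccl2 had the largest log2 fold changes between hemispheres, and their values spread widely between mice. Contralateral Ccl12 was at 3.23, 1.76, 3.28 and 3.5 FPKM in vehicle mice J, L, M and AH, at 1.99, 1.73, 2.36 and 4.35 in R33 mice K, N, O and AD, and at 1.37, 5.59, 3.71, 4.80 and 4.93 in R55 mice P, Q, R, AA and AB. Injected Ccl12 was at 19.6, 1.90, 6.11 and 6.88 in the vehicle mice, at 2.75, 2.21, 3.88, 21.7 and 12.6 in R33 mice K, N, O, AD and AE, and at 1.71, 2.09, 9.52, 57.7 and 16.3 in the R55 mice. It was higher on the injected side in 12 of 13 mice, all but Q, and the values of the sides overlapped in each treatment. Over the 13 mice the mean was 3.28 ± 1.37 FPKM contralateral and 11.7 ± 15.5 injected, 3.58 times as high. The log2 fold change was 1.01 ± 0.38 (limma, adjusted p = 1.0), 0.94 ± 0.28 with the replicate block (adjusted p = 0.619) and 1.59 ± 0.33 on recovered fragments with the block.

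Ccl2 was low on the contralateral side, from 0.113 FPKM in K to 1.02 in AA. On the injected side it was at 3.60, 0.237, 0.359 and 0.344 FPKM in vehicle mice J, L, M and AH, at 0.0871, 0.294, 0.184, 4.34 and 1.85 in R33 mice K, N, O, AD and AE, and at 0.0873, 0.0995, 0.879, 11.7 and 3.06 in R55 mice P, Q, R, AA and AB. Injected values above the contralateral range came from J, AD, AE, AA and AB, mice of all 3 treatments, and the other injected hemispheres lay within that range or below it. Ccl2 was higher on the injected side in 8 of 13 mice, at 0.396 ± 0.255 and 1.94 ± 3.29 FPKM, 4.91 times as high and so a larger ratio of means than that of Ccl12. The log2 fold change was 0.61 ± 0.30 (limma, adjusted p = 1.0), 0.57 ± 0.25 with the replicate block (adjusted p = 0.790) and 1.84 ± 0.47 on recovered fragments with the block (adjusted p = 0.299).

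Ccl7 was higher on the injected side in 10 of 13 mice, at 0.140 ± 0.174 and 0.684 ± 0.995 FPKM, from 40 and 194 fragments. Its highest values were 3.22 in AA, 1.91 in AD and 1.82 in AB, all injected. On recovered fragments with the block its log2 fold change was 1.86 ± 0.44 (limma, adjusted p = 0.251). Cxcl1, which attracts neutrophils, rested on 24 and 84 fragments and was higher in 8 of 13 mice and lower in 4, under the minimum of both fits. Cxcl2 had 3 and 14 fragments. Cxcl16, a chemokine of macrophages and endothelium, was at 2.01 ± 0.820 and 2.69 ± 1.76 FPKM (0.22 ± 0.10, adjusted p = 0.793 by limma with the block). Cxcl10 had no common direction, lower on the injected side in 7 of 13 mice, with a 95% interval of -0.62 to 0.67. Ccl5, which attracts T cells and macrophages, was higher on the injected side in 3 of 4 vehicle, 4 of 4 R33 and 1 of 5 R55 mice, with a 95% interval of the log2 fold change of -0.29 to 0.50.

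**Figure D2:**
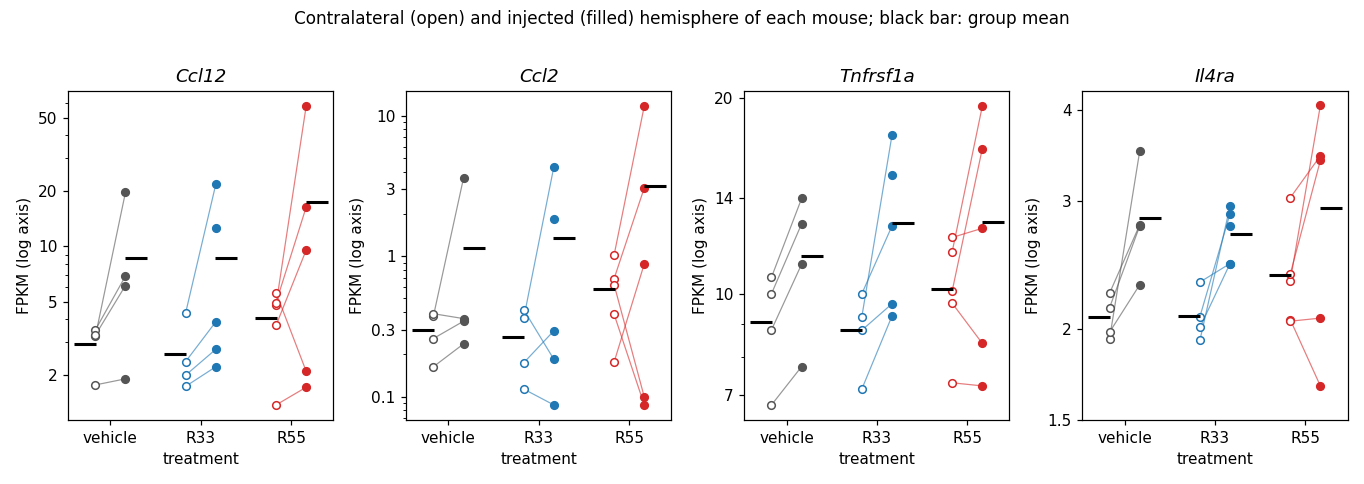
FPKM on log axes of Ccl12, Ccl2, Tnfrsf1a and Il4ra in each library, by treatment; lines join the contralateral (open) and injected (filled) hemisphere of a mouse, black bars are group means, and the filled R33 point without a line is mouse AE. Ccl12 and Il4ra were each higher on the injected side in 12 of 13 mice, and Ccl2 in 8, with its top value of 11.7 FPKM in R55 mouse AA.

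Among the ligands, Tnf was higher on the injected side in 11 of 13 mice, at 0.0899 ± 0.0665 and 0.190 ± 0.160 FPKM from 51 and 112 fragments. Its means in contralateral and injected hemispheres were 0.104 ± 0.0431 and 0.168 ± 0.161 FPKM with vehicle, 0.0543 ± 0.00892 and 0.158 ± 0.102 with R33, and 0.107 ± 0.0999 and 0.243 ± 0.204 with R55. On recovered fragments with the replicate block the log2 fold change of Tnf was 0.96 ± 0.24 (limma, adjusted p = 0.299). Both interleukin-1 genes were higher in 10 of 13 mice. Il1a, the form released by damaged cells, was at 0.923 ± 0.162 and 1.13 ± 0.283 FPKM with vehicle, 0.864 ± 0.188 and 1.27 ± 0.405 with R33, and 0.910 ± 0.30 and 1.18 ± 0.616 with R55 (0.19 ± 0.09, adjusted p = 1.0 by limma, and 0.18 ± 0.06 with the block). Il1b was at 0.447 ± 0.131 and 0.625 ± 0.492 FPKM with vehicle, 0.366 ± 0.105 and 0.716 ± 0.293 with R33, and 0.629 ± 0.303 and 0.785 ± 0.435 with R55 (0.48 ± 0.19, adjusted p = 0.585 by limma on recovered fragments with the block).

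Il1rn encodes the antagonist that blocks the interleukin-1 receptor. Its contralateral libraries ran from 0.0104 FPKM in N to 0.276 in AA, and its injected ones from 0 in Q to 1.95 in AA, with 0.656 in AD, 0.442 in AB, 0.336 in AE and 0.281 in J next. The 5 libraries with the most Il1rn were also the 5 with the most Ccl2. Il1rn was higher on the injected side in 9 of 13 mice, from 66 and 267 fragments, with a log2 fold change of 1.63 ± 0.43 on recovered fragments with the block (limma, adjusted p = 0.357). Il6 was lower on the injected side in 9 of 13 mice, on 38 and 25 fragments, under the minimum of both fits.

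Il4ra encodes the receptor chain that binds interleukin-4. Contralateral Il4ra stood at 1.94, 1.98, 2.14 and 2.24 FPKM in vehicle mice J, L, M and AH, at 2.32, 2.01, 2.08 and 1.93 in R33 mice K, N, O and AD, and at 2.06, 2.05, 3.03, 2.33 and 2.38 in R55 mice P, Q, R, AA and AB. Injected Il4ra stood at 3.51, 2.30, 2.77 and 2.78 in the vehicle mice, at 2.46, 2.46, 2.88, 2.95 and 2.77 in R33 mice K, N, O, AD and AE, and at 1.67, 2.07, 3.46, 4.06 and 3.41 in the R55 mice. The sides did not overlap in vehicle mice (2.24 and 2.30 at the nearest) or in R33 mice (2.32 and 2.46), and overlapped in R55 mice, where P was lower on the injected side. The share of all genes without overlap in such small groups is not given here, so no conclusion is drawn from this. The mean was 2.19 ± 0.293 and 2.83 ± 0.659 FPKM, and the log2 fold change 0.25 ± 0.08 (limma, adjusted p = 1.0) and 0.25 ± 0.06 with the replicate block (adjusted p = 0.427). Il13ra1, the chain that pairs with it, was higher in 11 of 13 mice, at 2.42 ± 0.681 and 2.65 ± 0.597 FPKM with vehicle, 2.22 ± 0.255 and 3.02 ± 0.80 with R33, and 2.58 ± 0.729 and 3.17 ± 1.26 with R55 (0.20 ± 0.11, adjusted p = 1.0 by limma, and 0.18 ± 0.06, adjusted p = 0.656 with the block). Stat6, the factor both activate, was also higher in 11 of 13 mice, at 4.35 ± 0.242 and 5.03 ± 0.571 FPKM with vehicle, 4.75 ± 0.283 and 5.34 ± 0.854 with R33, and 4.81 ± 0.340 and 5.37 ± 0.762 with R55 (0.14 ± 0.05, adjusted p = 1.0 by limma, and 0.14 ± 0.05 with the block).

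Contralateral Tnfrsf1a, the main TNF receptor, was at 10.6, 6.75, 8.80 and 10 FPKM in vehicle mice J, L, M and AH, at 7.14, 8.79, 10 and 9.22 in R33 mice K, N, O and AD, and at 7.30, 9.67, 12.2, 11.6 and 10.1 in R55 mice P, Q, R, AA and AB. Injected Tnfrsf1a was at 14, 7.73, 11.1 and 12.8 in the vehicle mice, at 9.24, 9.65, 12.7, 17.5 and 15.2 in R33 mice K, N, O, AD and AE, and at 7.22, 8.39, 12.6, 19.4 and 16.7 in the R55 mice. It was higher on the injected side in 11 of 13 mice, all but P and Q, and the sides overlapped. The log2 fold change was 0.33 ± 0.13 (limma, adjusted p = 1.0) and 0.31 ± 0.08 with the block (adjusted p = 0.417). Tnfrsf1b, the second TNF receptor, was at 1.88 ± 0.244 and 2.04 ± 0.367 FPKM with vehicle, 1.64 ± 0.155 and 1.95 ± 0.469 with R33, and 1.91 ± 0.401 and 2.41 ± 1.01 with R55 (0.14 ± 0.09, adjusted p = 1.0 by limma). Il1r1, the signalling receptor of interleukin-1, was higher in 11 of 13 mice, at 1.05 ± 0.382 and 1.60 ± 0.646 FPKM with vehicle, 1.20 ± 0.255 and 1.53 ± 0.387 with R33, and 1.15 ± 0.196 and 1.28 ± 0.0740 with R55 (0.20 ± 0.08, adjusted p = 1.0 by limma, and 0.18 ± 0.06, adjusted p = 0.679 with the block). For the interferon-gamma receptor chains the 95% intervals of the log2 fold change were -0.13 to 0.13 for Ifngr1 and -0.05 to 0.16 for Ifngr2. Ccrl2, an atypical chemokine receptor, was lower on the injected side in 9 of 13 mice (-0.16 ± 0.16, adjusted p = 0.882 by limma on recovered fragments with the block).

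Of the innate sensors, Tlr2 was at 1.93 ± 0.439 and 2.68 ± 1.52 FPKM (0.25 ± 0.10, adjusted p = 0.709 by limma with the block) and its adaptor Myd88 at 3.78 ± 0.611 and 4.50 ± 1.34 (0.18 ± 0.07, adjusted p = 0.681). Tlr4, the endotoxin receptor, was at 0.472 ± 0.107 and 0.541 ± 0.166 FPKM and the inflammasome sensor Nlrp3 at 0.702 ± 0.180 and 0.777 ± 0.224, both under the filter. Casp1 was higher in 6 of 13 mice and Casp4, its relative that senses cytosolic endotoxin, in 7.

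Of the 6 NF-kB factors and feedback inhibitors, 0 stood at an unadjusted p under 0.05 between hemispheres, without and with the block. Nfkb2, which encodes p100 and p52 of the noncanonical arm, was higher in 6 of 13 mice, at 1.40 ± 0.182 and 1.58 ± 0.406 FPKM with vehicle, 1.37 ± 0.0717 and 1.80 ± 0.605 with R33, and 1.54 ± 0.275 and 1.72 ± 0.488 with R55 (0.13 ± 0.08, adjusted p = 1.0 by limma). AD, with 1.42 and 2.61 FPKM on the 2 sides, and J, with 1.48 and 2.19, differed most. The 95% intervals of the log2 fold changes were -0.04 to 0.20 for Nfkb1, -0.06 to 0.20 for Rela, -0.10 to 0.23 for Relb, -0.11 to 0.15 for Nfkbia and -0.09 to 0.07 for Tnfaip3, which encodes the deubiquitinase A20. For the adhesion molecules the intervals were -0.04 to 0.34 for Icam1 and -0.16 to 0.27 for Vcam1, and for Ptgs2, the inducible cyclooxygenase, -0.22 to 0.33.

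The mice differed in how many members were higher on the injected side. The count was 23 of 26 in R33 mouse AD and vehicle mouse AH, 22 in R55 mice AA and AB, 20 in O, 18 in each of J, L and M, 17 in N, 16 in K and 15 in R. It was 9 in P and 5 in Q, both R55 mice. The share of all tested genes that were higher on the injected side ran from 43.6% in Q to 59.6% in R. It was 57.9% in AD, 51.1% in AH, 45.2% in AA, 46.6% in AB and 44.6% in P. The median log2 difference of the 26 ran from -0.189 in Q to 0.405 in AD, where that of all tested genes was -0.061 and 0.056. In the 4 pairs with 2 letters the mean log2 difference was 1.94 for Ccl12, 1.5 for Ccl2, 0.64 for Tnfrsf1a and 0.41 for Il4ra, and in the 9 with 1 letter 0.49, 0.16, 0.16 and 0.18. Casp1 had opposite signs, 0.40 (higher in 4 of 4) and -0.28 (higher in 2 of 9). The difference between the series was not tested.

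**Figure D3:**
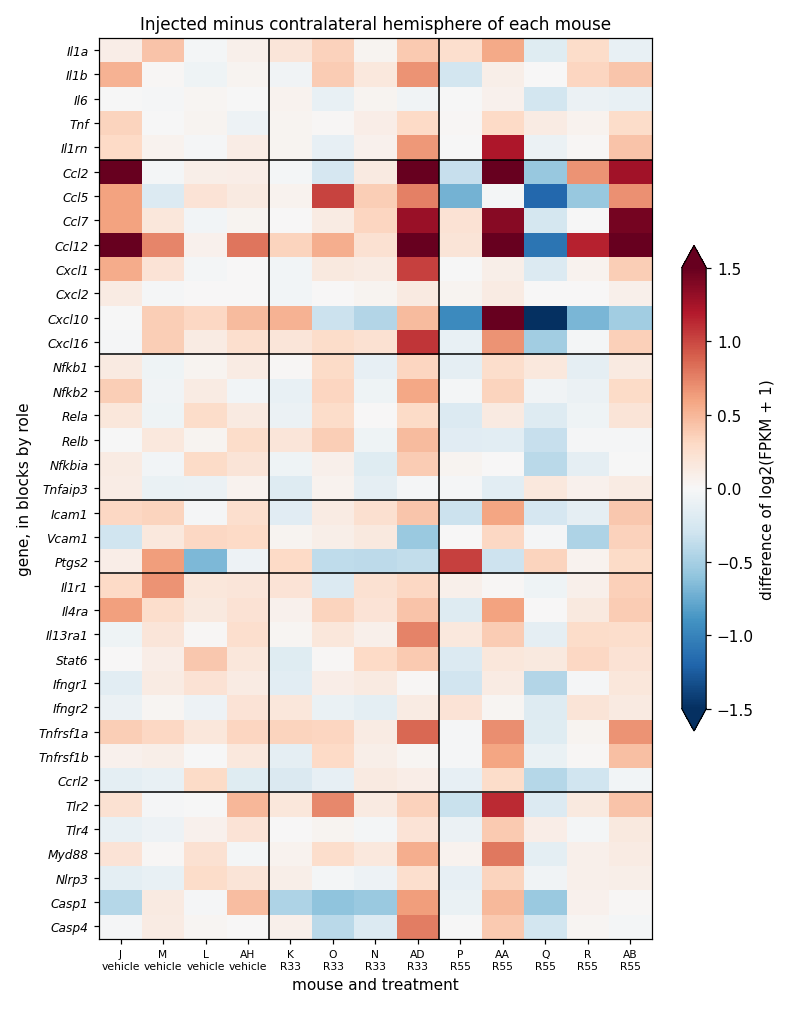
Difference of log2(FPKM + 1), injected minus contralateral hemisphere, of the 37 genes (rows, in blocks by role) in the 13 mice with both hemispheres (columns, by treatment); red is higher and blue lower on the injected side, and colours saturate at 1.5 in either direction. Of the 26 tested genes 23 were higher in AD and 5 in Q.

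Cell type markers were also compared between hemispheres. With the replicate block, 3 of 4 astrocyte markers were higher at an unadjusted p under 0.05, among them Gfap (0.49 ± 0.16, adjusted p = 0.656 by limma), and the list summed to 213 to 615 FPKM contralateral and 322 to 856 injected. Of all genes, 3.11% were higher at that level and 6.13% stood there in either direction. The astrocyte marker Slc1a3 was at -0.09 ± 0.15 without the block. Of 7 microglia markers Itgam was higher (0.21 ± 0.08, adjusted p = 0.683 by limma) and P2ry12 lower (-0.16 ± 0.06, adjusted p = 0.711), with sums of 222 to 396 and 199 to 547 FPKM. The 6 markers of monocytes and border macrophages summed to 18.9 to 109 and 14.6 to 114 FPKM, most of it Lyz2, and Ccr2 averaged 0.195 ± 0.413 and 0.265 ± 0.330. On recovered fragments with the block, 2 of these 6 were higher at that level, Cd163 (0.50 ± 0.15, adjusted p = 0.448 by limma) and Mrc1 (0.29 ± 0.13, adjusted p = 0.640). In that fit 4.12% of all genes were higher at that level and 7.51% stood there in either direction. The 5 neutrophil markers summed to 1.88 to 6.80 and 1.40 to 11.7 FPKM, with Ly6g at most 0.0420, Elane at most 0.0998 and Mpo at most 0.132. The 3 T cell markers summed to 0.0280 to 0.322 and 0.0506 to 0.383 FPKM.
Of 4 endothelial markers 1 was lower, Slco1a4 (-0.19 ± 0.07, adjusted p = 0.683 by limma), with sums of 24.9 to 103 and 24.2 to 71.5 FPKM. Of 5 neuron markers 1 was higher, Gad1 (0.22 ± 0.08, adjusted p = 0.681 by limma), with injected sums of 2029 to 3200.5 FPKM, and 0 of 3 oligodendrocyte markers stood at that level (392 to 1669 and 685 to 1905 FPKM). The 4 red blood cell genes are listed at 0 in every library. Why was not tested, so these values give no measure of blood in the tissue. The part of any of these cell types in the values of the 37 genes was not tested.

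R55 was compared with vehicle over both hemispheres, of which only the injected one was given the compound. How much of it reached the contralateral side was not measured here. No member passed, and 1 of all genes did (0.00771%). Of the 26 members 21 were higher with R55, with a median log2 fold change of 0.103 beside 0.026 over all genes. At an unadjusted p under 0.05 stood 3 (11.5%), Cxcl10, Casp1 and Ifngr1, all higher, near the 8.45% of all genes in either direction. The share of all genes that were higher at that level was 4.71%. The tally was not the same in the label series, and the difference was not tested. In mice with 1 letter (3 vehicle and 3 R55 mice) 8 of the 26 were higher and 18 lower with R55, with a median of -0.044. In those with 2 letters (1 vehicle and 2 R55 mice) 25 were higher, with a median of 0.230. Of the cell type markers, the astrocyte marker Aldh1l1 alone stood at an unadjusted p under 0.05 and was higher with R55 (0.38 ± 0.14, adjusted p = 0.552 by limma). With R55, 4 of 4 astrocyte, 6 of 7 microglia and 0 of 4 endothelial markers were higher, and their part in the values of the 37 genes was not tested. The fit counts both hemispheres of a mouse as separate samples. With 1 value per mouse, 1 member, Casp1, stood at an unadjusted p under 0.05, against 3.39% of all genes.

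Contralateral Cxcl10 was at 3.42, 0.955, 0.456 and 0.986 FPKM in vehicle mice J, L, M and AH, at 0.719, 2.07, 1.89 and 2.95 in R33 mice K, N, O and AD, and at 2.04, 5.93, 3.0, 5.39 and 5.04 in R55 mice P, Q, R, AA and AB. Injected Cxcl10 was at 3.41, 1.42, 0.876 and 1.77 in the vehicle mice, at 1.47, 1.26, 1.31, 4.47 and 4.11 in R33 mice K, N, O, AD and AE, and at 0.576, 1.06, 1.48, 27 and 3.19 in the R55 mice. On the contralateral side J alone of the vehicle mice reached into the R55 range, while on the injected side AA alone of the R55 mice lay above the vehicle range. The log2 fold change was 0.85 ± 0.38 (limma, adjusted p = 0.574), 0.85 ± 0.44 with 1 value per mouse (adjusted p = 0.918) and 0.45 without mouse AA. In mice whose label has 1 letter it was 0.24 (3 vehicle and 3 R55 mice) and in those with 2 letters 1.81 (1 and 2 mice).

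Contralateral Casp1 was at 3.11, 1.91, 1.74 and 1.65 FPKM in vehicle mice J, L, M and AH, at 2.77, 3.1, 3.05 and 2.29 in R33 mice K, N, O and AD, and at 2.18, 3.42, 2.49, 2.84 and 2.97 in R55 mice P, Q, R, AA and AB. Injected Casp1 was at 2.04, 1.87, 2.01 and 2.67 in the vehicle mice, at 1.74, 1.78, 1.67, 4.06 and 2.11 in R33 mice K, N, O, AD and AE, and at 1.98, 2.01, 2.65, 4.37 and 3.03 in the R55 mice. The groups overlapped on both sides. The log2 fold change for R55 against vehicle was 0.27 ± 0.12 (limma, adjusted p = 0.579), 0.27 ± 0.11 with 1 value per mouse (adjusted p = 0.918), and 0.15 and 0.45 in mice with 1 and 2 letters. Ifngr1 averaged 9.73 ± 1.40 and 10.3 ± 0.195 FPKM with vehicle, 10.2 ± 0.352 and 10.5 ± 1.06 with R33, and 11.7 ± 0.933 and 11.2 ± 2.61 with R55 in contralateral and injected hemispheres. Its log2 fold change was 0.17 ± 0.08 (limma, adjusted p = 0.584), 0.07 and 0.32 in the label series, and 0.11 without AA. Without AA, none of the 3 genes stood at an unadjusted p under 0.05 (log2 fold change of Casp1 0.20). The count of members there was also 0 without AB, AH, L or M, and 4 without J or P.

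**Figure D4:**
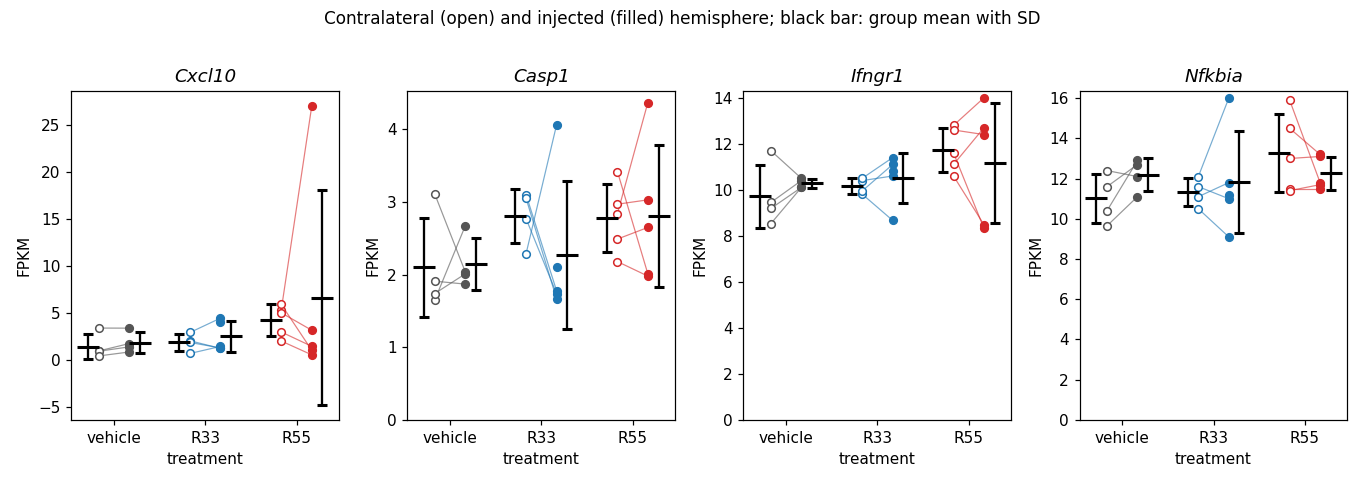
FPKM of Cxcl10, Casp1, Ifngr1 and Nfkbia by treatment; open points are contralateral and filled points injected hemispheres, lines join those of a mouse, and black bars give the group mean with SD (n = 4 or 5 libraries), the SD bar of injected R55 Cxcl10 reaching below 0. Contralateral Cxcl10 averaged 1.45 ± 1.33 FPKM with vehicle and 4.28 ± 1.67 with R55, and 1 injected R55 hemisphere, AA, reached 27.

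Fitted by hemisphere, 5 of the 26 members stood at an unadjusted p under 0.05 for R55 against vehicle on the contralateral side, all higher, against 11.5% of all genes. These were Cxcl10 (1.17 ± 0.33, adjusted p = 0.366 by limma), Ifngr1 (0.25 ± 0.09, adjusted p = 0.382), Nfkbia (0.25 ± 0.10, adjusted p = 0.408), Relb (0.25 ± 0.11, adjusted p = 0.423) and Casp1 (0.30 ± 0.13, adjusted p = 0.425). On the injected side 0 of 26 did, against 1.09% of all genes. Contralateral Nfkbia was at 11.6, 10.4, 12.4 and 9.65 FPKM in vehicle mice J, L, M and AH and at 11.4, 15.9, 14.5, 13 and 11.5 in R55 mice P, Q, R, AA and AB, where Q, R and AA lay above all vehicle mice. Its means were 11 ± 1.23 and 12.2 ± 0.789 FPKM with vehicle, 11.3 ± 0.707 and 11.8 ± 2.55 with R33, and 13.3 ± 1.94 and 12.3 ± 0.811 with R55. Relb, the noncanonical subunit, was at 2.70 ± 0.521 and 3.01 ± 0.581 FPKM with vehicle, 2.40 ± 0.311 and 3.08 ± 0.863 with R33, and 3.38 ± 0.483 and 2.97 ± 0.466 with R55.

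Whether the hemispheres differ in their response to R55 was tested as the difference of the injection effect between R55 and vehicle mice. No member and no other gene passed (0%), and 0 of 26 members stood at an unadjusted p under 0.05, against 1.84% of all genes. The smallest p-values of members were those of Nfkbia (-0.24 ± 0.16, adjusted p = 0.999 by limma) and Relb (-0.26 ± 0.19, adjusted p = 0.999). With the replicate block 1 member, Relb, stood there (-0.26 ± 0.12, adjusted p = 0.806 by limma), against 5.93% of all genes. For R33 minus vehicle no member and no other gene passed (0%), and 0 members stood at an unadjusted p under 0.05, against 0.378% of all genes. With the replicate block the count was also 0, against 0.956% of all genes. Casp1 had the smallest p of the members without the block (-0.29 ± 0.26, adjusted p = 1.0 by limma).

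For R55 against vehicle the 95% interval of the log2 fold change included 0 in the interleukin-4 axis, Il1a and Nfkb2. The intervals of the treatment comparisons count both hemispheres of a mouse as separate samples, so they can be too narrow. For R55 against vehicle the interval was -0.13 to 0.25 for Il4ra, -0.17 to 0.38 for Il13ra1, -0.03 to 0.23 for Stat6, -0.25 to 0.22 for Il1a and -0.12 to 0.27 for Nfkb2. For the other chemokines tested it was -0.36 to 1.15 for Ccl2, -0.63 to 1.3 for Ccl12, -0.30 to 0.67 for Ccl5 and -0.19 to 0.72 for Cxcl16. These 4 genes were higher with R55 on average, but lower in mice with 1 letter, where the log2 differences were -0.25, -0.28, -0.13 and -0.01, against 1.48, 1.20, 0.64 and 0.58 in those with 2 letters. Of the members under the filter, Nlrp3 was lower with R55 on recovered fragments (-0.42 ± 0.19, adjusted p = 0.625 by limma), where 7.75% of all genes stood at an unadjusted p under 0.05. Its means were 0.811 ± 0.214 and 0.873 ± 0.177 FPKM with vehicle, 0.712 ± 0.191 and 0.854 ± 0.227 with R33, and 0.607 ± 0.111 and 0.696 ± 0.288 with R55.

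For R33 against vehicle, no member and no other gene passed (0%). Of the 26 members 14 were higher, with a median log2 fold change of 0.013 beside 0.018 over all genes, and 0 stood at an unadjusted p under 0.05, against 5.87% of all genes. By label series, 5 of the 26 were higher with R33 in mice with 1 letter (3 vehicle and 3 R33 mice). In those with 2 letters (1 vehicle and 2 R33 mice) 24 were higher. Of the latter R33 mice, AE had an injected library only, so the tally of 24 mixes hemisphere with treatment. Aldh1l1 was again the one cell type marker at that level (0.31 ± 0.15, adjusted p = 0.834 by limma). The smallest p-values belonged to Tnfaip3 (-0.08 ± 0.05, adjusted p = 0.850 by limma), Stat6 (0.08 ± 0.07, adjusted p = 0.850), Casp1 (0.15 ± 0.13, adjusted p = 0.851), Ptgs2 (-0.18 ± 0.17, adjusted p = 0.863) and Tnfrsf1b (-0.08 ± 0.11, adjusted p = 0.894). Tnfaip3 averaged 1.52 ± 0.158 and 1.5 ± 0.126 FPKM with vehicle, 1.45 ± 0.165 and 1.33 ± 0.0742 with R33, and 1.46 ± 0.156 and 1.52 ± 0.155 with R55 in contralateral and injected hemispheres, and Ptgs2 3.59 ± 1.06 and 3.72 ± 1.79 FPKM with vehicle, 3.20 ± 0.320 and 2.92 ± 1.17 with R33, and 2.89 ± 0.452 and 3.89 ± 1.62 with R55. On the contralateral side alone 1 member, Casp1, stood at an unadjusted p under 0.05 (0.31 ± 0.14, adjusted p = 1.0 by limma), against 2.96% of all genes.

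R55 was compared with R33, both thiophene thioureas given at the same concentration and time, as 1 pair. No member and no other gene passed (0%), and 0 members stood at an unadjusted p under 0.05, against 1.15% of all genes. Of the 26 members 21 were higher with R55, with a median of 0.093 beside 0.005, and by label series 17 in mice with 1 letter and 18 in those with 2. The tally of 18 also mixes hemisphere with treatment, since R33 mouse AE had an injected library only. The smallest p-values belonged to Nfkbia (0.14 ± 0.08, 95% interval -0.02 to 0.29, limma adjusted p = 1.0), Relb (0.16 ± 0.10, -0.04 to 0.36), Ifngr1 (0.12 ± 0.08, -0.04 to 0.28), Cxcl10 (0.56 ± 0.37, -0.21 to 1.32) and Tnfrsf1b (0.15 ± 0.11, -0.07 to 0.37). The intervals do not show that the compounds act alike, and for Cxcl10, Ccl2 (-0.37 to 1.11) and Ccl12 (-0.48 to 1.40) they reach beyond 1 on the log2 scale. On the contralateral side alone, 3 members stood at an unadjusted p under 0.05, Relb (0.36 ± 0.11, adjusted p = 0.996 by limma), Ccl5 (0.71 ± 0.24, adjusted p = 0.996) and Cxcl10 (0.86 ± 0.33, adjusted p = 0.996), all higher with R55, against 2.03% of all genes. Without mouse P the count over both hemispheres was 5, without AD 2, and without AB or Q 1. The 3 treatment comparisons share libraries with each other.

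**Figure D5:**
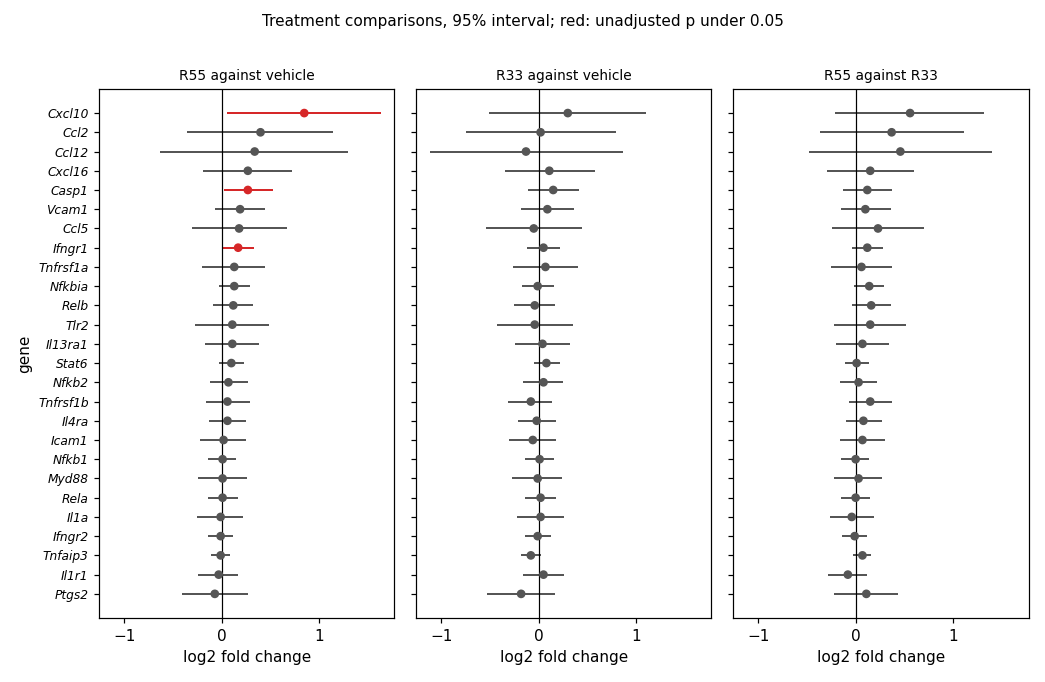
Log2 fold change on the log2(FPKM + 1) scale (points) with its 95% interval (bars) of the 26 tested genes for R55 against vehicle, R33 against vehicle and R55 against R33. Red marks an unadjusted p under 0.05, reached by Cxcl10, Casp1 and Ifngr1 for R55 against vehicle and by no gene in the other panels, and none passed after adjustment.

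Other genes of these pathways were taken from 4 lists, and none passed in any of the comparisons below. Between hemispheres with the replicate block, 4 of 31 NF-kB signalling genes tested stood at an unadjusted p under 0.05, where the share of all genes was 6.13%. All were higher, with Bcl3, a nuclear IkB protein (0.39 ± 0.14, adjusted p = 0.681 by limma), Ripk1, a kinase of the TNF receptor complex (0.13 ± 0.04, adjusted p = 0.681), and Map3k14, the NF-kB-inducing kinase (0.09 ± 0.04, adjusted p = 0.716), having the smallest p-values. Of 27 other cytokine genes 4 did, all higher, led by Stat3 (0.27 ± 0.05, adjusted p = 0.274 by limma), the TWEAK receptor Tnfrsf12a (0.47 ± 0.09, adjusted p = 0.274) and Socs3, the feedback inhibitor of STAT3 (0.38 ± 0.13, adjusted p = 0.656). Among the other chemokine genes Cxcl12 was lower at that level (-0.18 ± 0.08, adjusted p = 0.762 by limma), and of 13 other sensor genes Casp8 (0.22 ± 0.08, adjusted p = 0.683) and the inflammasome adaptor Pycard (0.33 ± 0.13, adjusted p = 0.709) were higher.
For R55 against vehicle, Cyld, a deubiquitinase that restrains NF-kB, was lower (-0.15 ± 0.07, adjusted p = 0.572 by limma), and Ccl25 (0.22 ± 0.08, adjusted p = 0.552) and Tnfsf12, which encodes TWEAK (0.30 ± 0.12, adjusted p = 0.552), were higher at an unadjusted p under 0.05. For R33 against vehicle, Tradd, an adaptor of the TNF receptor (0.23 ± 0.08, adjusted p = 0.834 by limma), Ccl25 (0.17 ± 0.08, adjusted p = 0.834), Il33 (0.37 ± 0.18, adjusted p = 0.834) and Lbp, which encodes the lipopolysaccharide-binding protein (0.58 ± 0.27, adjusted p = 0.834), were higher. For R55 against R33, Lbp alone stood there and was lower with R55 (-0.59 ± 0.26, adjusted p = 1.0 by limma). Each list held at most 1 such gene in each comparison, a share no higher than 7.69%, where the shares of all genes were 8.45% for R55 against vehicle, 5.87% for R33 against vehicle and 1.15% for R55 against R33.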

How the data were processed

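Per the study's methods, the authors made polyA-selected Illumina Stranded mRNA libraries, sequenced them paired-end on a NextSeq 2000 and aligned reads to GRCm39 with HISAT2, and they deposited FPKM values per gene and library. The counter and its annotation are not given in the sources used here. The deposited table held 32 libraries, of which 5 were not used here. Library totals were 15932196 to 38077027 fragments (median 27441309), recovered from the steps of the FPKM values, of which 99.99% were whole fragments within 0.01.

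Genes averaging 1 FPKM or more were fitted as log2(FPKM + 1) with limma 3.58.1 (R 4.3.3, statmod 1.5.0, intensity trend, two-sided) on treatment and hemisphere, or on the 6 groups for differences of the injection effect, with Benjamini-Hochberg adjustment over all genes. limma voom on recovered fragments called 1 gene for R55 against vehicle and 0 for the injection. Summaries used pandas 2.3.3, numpy 2.4.6, scipy 1.17.1 and matplotlib 3.10.9. Scripts were tested on simulated data.

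Mice pair the hemispheres. Deviations from group means correlated at 0.394 on average within a mouse (13 pairs, -0.0787 to 0.648) and -0.106 between mice (48 pairs). Treatment p-values without the block treat both hemispheres as separate samples. Alternatives were a pseudocount of 0.1, no filter, median-of-ratios scaling, removal of a length trend, voom, the label series as covariate, the mouse as block and each mouse left out. The fits on genes with a mean of at least 5 fragments, the pseudocount joined with no filter, and the modelled correlation for the injection were added after seeing the data.

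The members and lists were chosen with earlier results of these data known. Full values are given for the 5 members with the smallest p in each comparison between hemispheres or treatments, for Il1a, Il1b, Nfkb2, Il4ra, Il13ra1 and Stat6, which the study discusses, for Tnf, Ccl2 and Nfkbia, and for up to 3 genes per pathway list and comparison. Ccl7, Il1rn and other members below the filter are given by ranges and fragments, and Cxcl16, Tlr2, Myd88, Ccrl2 and Nlrp3 were singled out after their values were seen. The count of the other chemokine genes between hemispheres is not reported here.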

Additional observations from a re-analysis of the deposited data

Results flagged for a closer look

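In 17 of 212 groups of 4 or 5 libraries (8.02%), 1 library stood apart from the rest by Dixon's 95% limit on its gap over the range. Independent values with a normal spread would give about 1 in 20. FPKM values of genes in the same libraries need not be such values, so no conclusion is drawn from the share. The flagged groups concerned 11 of the 37 genes and 8 libraries, most often the injected hemisphere of R55 mouse AA (4 genes) and of vehicle mouse J (3 genes). In injected AA, Ccl12 was at 57.7 FPKM, Cxcl10 at 27, Ccl2 at 11.7 and Il1rn at 1.95, where the other injected R55 libraries reached at most 16.3, 3.19, 3.06 and 0.442. In contralateral AA, Il1b was at 1.16 and Tnf at 0.283 FPKM. In injected J, Ccl2 was at 3.60, Nfkb2 at 2.19 and Il1b at 1.36 FPKM, and in contralateral J, Il1b was at 0.642 and Casp4 at 0.801. In injected AD, of the R33 mice, Ccl7 was at 1.91 and Casp1 at 4.06 FPKM. All of these were the highest of their group. The lowest of their group were Ccl12 at 1.76 and Nfkb2 at 1.13 in contralateral vehicle mouse L, and Il1r1 at 0.812 in contralateral AB and 1.15 in injected Q. The cause of these values was not tested.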

How the results depend on the processing

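No member passed under any alternative, and the smallest adjusted p of a member over them was 0.174 for the injection (Ccl12), 0.308 for R55 against vehicle (Cxcl10), 0.475 for R33 against vehicle (Il1r1), 0.414 for R55 against R33 (Nfkbia), 0.552 for the difference of the injection effect with R55 (Relb) and 1.0 with R33 (Casp1), all by limma. With the mouse as a replicate block, the members at an unadjusted p under 0.05 for the injection numbered 11 in place of 6, and 16 with the block on recovered fragments, where more genes were tested; the block left the count of members that passed at 0 in each comparison. Leaving out 1 mouse gave 5 to 10 without the block (highest without P) and 9 to 13 with it. For R55 against vehicle the count of members ran from 0 to 4 over the left-out mice, and was 1 with the label series as a covariate, 1 with the length trend removed and 0 with the correlation within mice modelled. The count of all genes that passed for R55 against vehicle was 1, 50 without AD, 4 without AH, 3 without J and 0 or 1 under the other alternatives. For the injection 1 gene passed in 4 alternatives, all with the mouse in the model, and for R33 against vehicle 1 gene passed without the filter. The fold change changed sign under at least 1 alternative for 5 of the 26 members between hemispheres, 16 for R55 against vehicle, 19 for R33 against vehicle, 15 for R55 against R33, and 12 and 15 for the differences of the injection effect with R55 and R33. None of these stood at an unadjusted p under 0.05 in its comparison over both hemispheres without the block. On the contralateral side alone, Relb stood there for R55 against vehicle, and Relb and Ccl5 for R55 against R33. On the injected side alone, for R55 against vehicle, Ccl5 was at -0.09, Rela at -0.07 and Relb at -0.01. The log2 fold change of Ccl12 between hemispheres ran from 0.83 to 1.18 over the left-out mice (lowest without AA) and from 0.94 to 1.59 over the others. Ccl2 ran from 0.45 to 0.71 and from 0.57 to 1.84, and Cxcl10 for R55 against vehicle from 0.45 to 1.13 and from 0.53 to 1.17. The 1.59 of Ccl12 and the 1.84 of Ccl2 came from the blocked fit on recovered fragments, which is on another scale. Causes were not tested. In the library of median depth 1 fragment on a gene of 2000 bases was worth 0.01822 FPKM, so the values of Il6, Cxcl1 and Cxcl2 rest on few fragments.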
